A study of Mus musculus with 4 samples.

Results

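Arterial endothelial cells of the mouse femoral epiphysis were examined on postnatal days 12 and 10, in cells selected by their transcripts from the dissociated end of the bone. A cell was counted as arterial-gated when it held UMIs (unique molecular identifiers, each standing for 1 captured transcript) of at least 3 of the 7 endothelial genes Pecam1, Cdh5, Kdr, Flt1, Emcn, Egfl7 and Plvap and of at least 2 of the 6 arterial genes Gja4, Gja5, Bmx, Hey1, Sox17 and Dll4. It also had no UMI of Stab2, a scavenger receptor of sinusoidal endothelium, and none of Ptprc, the pan-leukocyte antigen CD45. Cartilage transcripts of 5 genes (Col2a1, Col9a1, Col9a2, Col9a3 and Acan) made up under 3% of its UMIs. This gave 114 cells on day 12 and 144 cells on day 10, together 258 of 26282 filtered cells of these days and of 49055 in the series. They were 0.701% of filtered cells on day 12 (95% Clopper-Pearson interval 0.579 to 0.842%) and 1.44% on day 10 (1.21 to 1.69%). Among the cells that passed the endothelial gate with no Ptprc UMI and with cartilage transcripts below the limit, the arterial-gated share was 24.4% of 467 on day 12 and 26.7% of 540 on day 10.

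The series holds 4 libraries of cells from the femoral epiphysis of WT mice, taken 7, 8, 10 and 12 days after birth, with 1 library per day and no treatment. Transcripts were captured at their 3' ends in droplets, and the sources used here do not state how many animals, or of which sex, made up a library. The protocol text names another tissue at the digestion step, so the handling of the epiphysis is known only in part. The 4 libraries held 44218720 to 169323978 UMIs in 10028 to 16254 cells each after filtering (a floor of 500 genes and 1000 UMIs per cell and a ceiling of 15% mitochondrial UMIs), and days 10 and 12 shared 240 cell barcodes, 1 of them endothelial-gated in both. Each day has 1 library and the groups of cells were chosen by their own transcripts, so no test is given, and a difference between days cannot be told apart from a difference between libraries.

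Arteries carry blood under pressure from the heart, and their endothelium is set apart from that of veins by Notch signalling through Dll4 and its Hey targets, by SoxF transcription factors and by the connexins Gja4 and Gja5 that couple neighbouring cells. The venous programme is held by the nuclear receptor Nr2f2, and ephrin-B2 on arteries meets its receptor EphB4 on veins. In growing bone, arterioles feed the capillaries that invade the cartilage of the epiphysis, while Stab2-bearing sinusoids drain the marrow.

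The promoters of 4 genes are shown because Gja4 helped to choose the cells and Sema3g, Depp1 and Cxcl12, which did not, were among the genes with the largest excess in them. Each run gives the 250 bases before the transcription start of the RefSeq gene on build GRCm38.p6 (the counts were made on GRCm39), 5′ to 3′ on the gene's strand. Capitals mark matches, on either strand, to TGGGAA (bound by the Notch partner RBPJ), ACAAT (the core of SOX sites) and AGGAAG (an ETS site), and no 2 matches overlapped.
Gja4 (chr4:127314040-127314289, minus strand): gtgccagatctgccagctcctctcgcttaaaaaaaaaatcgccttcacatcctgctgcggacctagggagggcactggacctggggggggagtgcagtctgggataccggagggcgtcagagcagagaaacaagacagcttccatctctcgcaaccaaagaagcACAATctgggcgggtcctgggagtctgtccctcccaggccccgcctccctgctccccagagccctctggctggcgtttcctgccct
Sema3g (chr14:31217623-31217872, plus strand): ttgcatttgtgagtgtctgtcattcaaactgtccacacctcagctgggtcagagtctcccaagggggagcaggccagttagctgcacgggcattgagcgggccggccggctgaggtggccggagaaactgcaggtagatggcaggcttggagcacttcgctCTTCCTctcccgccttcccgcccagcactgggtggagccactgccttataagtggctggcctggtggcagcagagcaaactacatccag
Depp1 (chr6:116650434-116650683, plus strand): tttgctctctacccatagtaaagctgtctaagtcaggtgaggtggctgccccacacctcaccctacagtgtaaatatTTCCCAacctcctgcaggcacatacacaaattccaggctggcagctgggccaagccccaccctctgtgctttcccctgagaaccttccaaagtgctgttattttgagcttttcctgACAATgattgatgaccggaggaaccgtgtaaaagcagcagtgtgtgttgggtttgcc
Cxcl12 (chr6:117168285-117168534, plus strand): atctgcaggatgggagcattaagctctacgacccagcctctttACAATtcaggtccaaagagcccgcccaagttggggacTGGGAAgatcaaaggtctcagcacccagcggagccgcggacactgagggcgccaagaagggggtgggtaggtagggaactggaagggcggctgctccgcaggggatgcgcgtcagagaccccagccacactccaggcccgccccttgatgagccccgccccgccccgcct
In 15 of 20 arterial genes described below that had a promoter in the table, TGGGAA was found in 4, ACAAT in 6 and AGGAAG in 3. Over all 27025 promoters of the table the shares were 21.5% for TGGGAA, 28.4% for ACAAT and 29.2% for AGGAAG. The matches describe the letters of these windows and no binding was measured.

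The arterial-gated cells were compared, within each library, with other endothelial cells (the same gate but fewer than 2 arterial genes: 288 cells on day 12 and 375 on day 10) and with sinusoidal cells (at least 1 UMI of Stab2: 65 cells on day 12 and 21 on day 10). Levels are counts per 1000000 UMIs (CPM) of the summed cells of a group, and intervals cover counting error only. Depth differed between the groups. The median was 9485 UMIs per arterial-gated cell, against 4959.5 per other endothelial cell and 11109 per sinusoidal cell on day 12, and 13053.5 against 4774 and 19101 on day 10. The gate favours deep cells, since 2 detected genes are easier to reach with more UMIs, and shares of cells are therefore given after thinning each cell to 3000 UMIs, which kept 104 of 114 arterial-gated cells on day 12 and 130 of 144 on day 10.

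The 6 genes of the arterial gate are a description of the choice. Gja4 had 246 CPM in arterial-gated cells, against 6.22 CPM in other endothelial cells and 7.55 CPM in sinusoidal cells on day 12. On day 10 it had 170.2 CPM in arterial-gated cells, against 8.85 CPM in other endothelial cells and no UMI in sinusoidal cells. Gja4 was low in both other groups in both libraries. Hey1, a repressor switched on by Notch, had 126 CPM against 6.22 CPM in other endothelial cells on day 12 and 111 against 8.24 CPM on day 10. Sox17 had 183 against 30.6 CPM on day 12 and 197 against 29.3 CPM on day 10. Dll4, the Notch ligand of arterial and sprouting cells, was less restricted: it had 155 CPM in arterial-gated cells against 74.4 CPM in sinusoidal cells on day 12, and 163 against 43.8 CPM on day 10. Gja5 and Bmx were the sparse members, with 27.2 and 34.1 CPM in arterial-gated cells on day 12 and 35.9 and 53.6 CPM on day 10. Many cells passed narrowly: 53 of 114 cells on day 12 and 71 of 144 on day 10 held exactly 2 of the 6 genes, while 29 and 43 held 4 to 6. Egfl7 hardly contributed to the endothelial gate, with 2.53 CPM on day 12 against 3.8 CPM on day 10.

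Genes that the rule did not use carried the arterial label further. Of 22 further genes known from arterial endothelium, 20 could be measured against other endothelial cells in both libraries, and 12 of them were at least 2-fold higher in both, the definition of a called gene here. Over all 10487 genes measured that way 0.896% were called higher and 1.47% lower. The list's median log2 ratio, taking for each gene the library where it was closer to 0 and 0 where the libraries had opposite signs, was 1.18, against 0.00 over all genes. The 12 were Efnb2, Unc5b, Sema3g, Cxcr4, Jag1, Jag2, Vegfc, Igfbp3, Fbln5, Depp1, Stmn2 and Rbp7. Only Htra1, a secreted protease, was lower in both libraries (log2 -0.36 and -0.93). Alpl had opposite signs (log2 0.66 on day 12 and -1.91 on day 10). Hey2 and Gkn3 had too few UMIs on day 12 for a ratio.

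**Figure D1:**
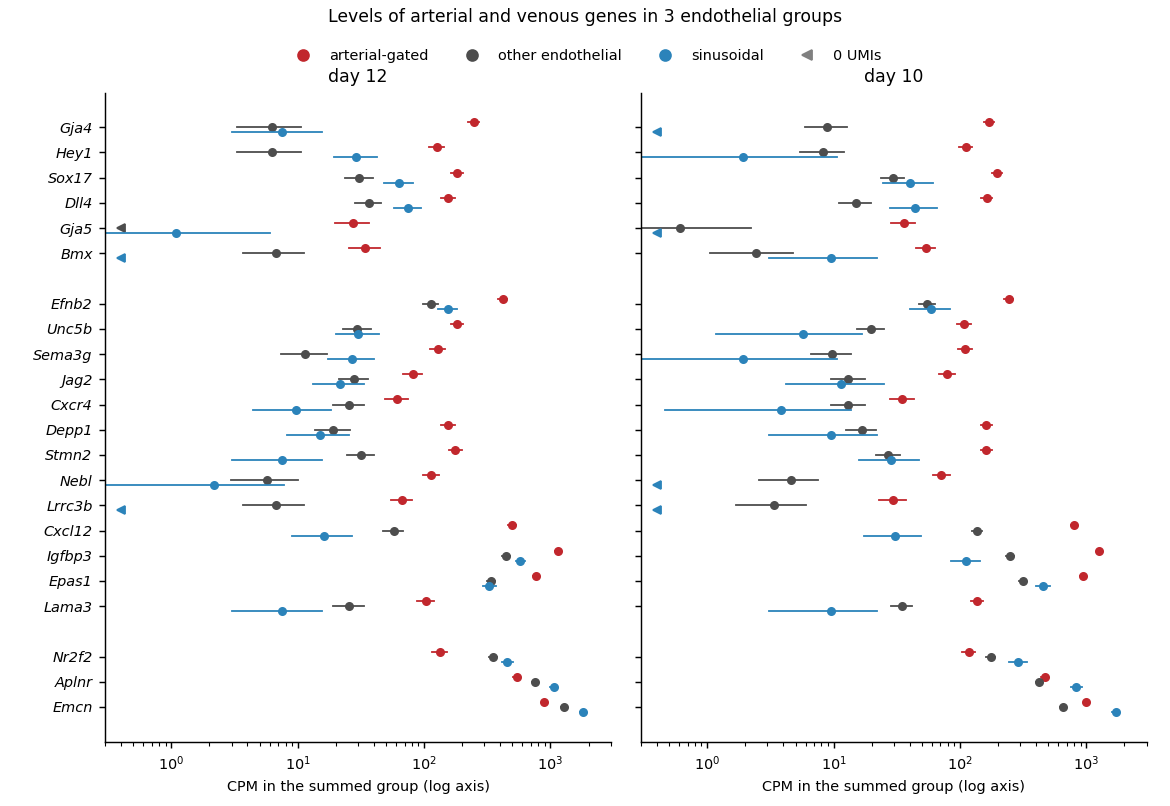
Levels of 22 genes in arterial-gated (red), other endothelial (grey) and sinusoidal (blue) cells on days 12 and 10. The x axis is CPM of the summed group on a log scale, lines are 95% Poisson intervals for counting error, and a triangle marks 0 UMIs; the upper block holds the gate genes, the middle block genes outside the gate, where every red point lies right of the grey and blue ones, and the lower block Nr2f2, Aplnr and Emcn.

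Guidance molecules were prominent among them. Efnb2, the arterial ephrin-B2, had 418 CPM in arterial-gated cells on day 12 (95% Poisson interval 387 to 451), against 112 CPM in other endothelial and 154 CPM in sinusoidal cells. On day 10 Efnb2 had 243 CPM, against 55.2 and 59 CPM in those groups. Its log2 ratio over other endothelial cells was 1.89 on day 12 and 2.13 on day 10, and the intervals of the levels did not overlap in either library. Its receptor Ephb4, in contrast, had 138 against 165 CPM on day 12 and 74.8 against 47.3 CPM on day 10, with opposite signs in the libraries. Sema3g, a secreted semaphorin of arteries, had 128 against 11.5 CPM in other endothelial cells on day 12 and 110.2 against 9.77 CPM on day 10. Unc5b, a netrin receptor, had 183 against 29.7 CPM on day 12 and 108 against 19.8 CPM on day 10. Efna1 (log2 1.18 and 1.46 on days 12 and 10) and Epha4 (log2 2.06 and 1.76) were the other members of the guidance list called higher, which makes 5 of 16 measured against the 0.896% of all genes. Robo1, Robo4, Sema6a and Plxnd1, which most endothelial cells use, had log2 ratios of 0.25, 0.33, -0.11 and -0.11 on day 12 and 0.63, 1.21, 0.69 and 0.59 on day 10. On the single days 6 of 16 guidance genes were at least 2-fold higher on day 12 and 8 of 17 on day 10. The shares over all genes on the single days were 2.53% and 5.3%.

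The groups also differed in how many cells held these transcripts at equal depth. After thinning, Sema3g was detected in 31.7% of arterial-gated cells on day 12 (95% Clopper-Pearson interval 22.9 to 41.6%), against 2.55% of other endothelial cells (0.833 to 5.85%) and 0.207% of leukocytes. The leukocytes and stromal cells used for such shares were chosen to hold no UMI of the 7 endothelial genes, so their shares can understate free endothelial RNA. Stromal cells were all such cells with UMIs of Col1a1, Col1a2 and Col3a1 and none of Ptprc. On day 10 the shares were 20.8% (14.2 to 28.8%), against 2.5% (0.923 to 5.36%) and 0.0835%. Without thinning, the Sema3g shares were 47.4% against 6.25% of other endothelial cells on day 12 and 45.1% against 7.47% on day 10. Median depths of the leukocytes were 5068.5 UMIs on day 12 and 8050.5 on day 10. Most thinned arterial-gated cells thus had no Sema3g UMI on either day.

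Within the Notch pathway the ligands stood higher, and most other members, like most genes, did not pass 2-fold in both libraries. Jag1 had 124 against 57.4 CPM in other endothelial cells on day 12 and 123 against 39.7 CPM on day 10, and Jag2 had 81.5 against 27.7 CPM and 79.4 against 13.1 CPM. Both ligands were called higher, and they were the only 2 of 16 measured members of the Notch list outside the gate that were. Over all genes 0.896% were called higher. On day 12 alone 4 of 16 were at least 2-fold higher and none lower, against 2.53% and 3.82% of all genes. On day 10 alone 7 of 17 were higher and 2 lower, against 5.3% and 9.8%. The receptor Notch4 came close to a call, with log2 ratios of 0.96 on day 12 and 2.05 on day 10. Notch1 had 372 against 287 CPM on day 12, where its ratio was 0.37, and 331 against 121 CPM on day 10, where it was 1.45. Rbpj, the DNA-binding partner of all Notch receptors, had ratios of -0.07 and -0.40, and the feedback inhibitor Nrarp 0.18 and 1.01. Hey2 was detected in few cells, at 9.48 against 1.43 CPM on day 12 and 16.9 against 1.53 CPM on day 10. Ratios on day 10 need a second value beside them: the endothelial genes of the gate were themselves higher in arterial-gated cells there, with Cdh5 at 1691 against 872 CPM (log2 0.96), while on day 12 Cdh5 was at 1961 against 1624 CPM (log2 0.27). The other endothelial cells of day 10 held more RNA of other classes, with hemoglobin at 1.58% of UMIs in arterial-gated cells against 5.04% in other endothelial cells, and 10 fibroblast genes at 1.89% against 6.85%. The part of this RNA in the day 10 ratios was not tested. On day 12 hemoglobin was at 0.562% in arterial-gated cells against 0.99% in other endothelial cells, and the fibroblast genes at 2.85% against 3.22%.

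Cxcl12, the chemokine that retains blood stem cells and guides vessels and stromal cells, had the largest ratio over other endothelial cells held in both libraries among the angiocrine and niche genes. It had 494 CPM in arterial-gated cells on day 12 (95% interval 460.1 to 530.0), against 57.4 CPM in other endothelial cells and 16.2 CPM in sinusoidal cells. On day 10 it had 797 CPM (761 to 834), against 136 and 30.5 CPM. The log2 ratio over other endothelial cells was 3.09 on day 12 and 2.54 on day 10, and over sinusoidal cells 4.87 and 4.68. After thinning, 43.3% of arterial-gated cells held a UMI on day 12 and 49.2% on day 10, against 12.8% and 22.9% of other endothelial cells and 6.35% and 6.35% of leukocytes. Without thinning the arterial-gated shares were 64.9% on day 12 and 64.6% on day 10. Stromal cells, the other known source of this chemokine, held 142 CPM in the day 12 library and 95.3 CPM in the day 10 library. That group mixed cell classes, with chondrocyte genes at 4.62% of its UMIs on day 12 and hemoglobin at 14.9% on day 10. Its average is thus not the level of those stromal cells that make Cxcl12, and that level was not measured. Its receptor Cxcr4 was also called higher, at 60.7 against 25.4 CPM on day 12 and 35.1 against 13.1 CPM on day 10.

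Other signals to neighbouring cells were mixed. Of 17 measured angiocrine and niche genes, 5 were called higher (Cxcl12, Jag1, Jag2, Igfbp3 and Bmp6) and none lower, against 0.896% and 1.47% of all genes. On day 10 alone 8 of 18 were at least 2-fold higher and 8 lower, against 5.3% and 9.8% of all genes that day. Bmp6 had 57.5 against 24.4 CPM on day 12 and 62.5 against 26.9 CPM on day 10, with 1 UMI in all sinusoidal cells of day 12 and none on day 10. Igfbp3, which binds insulin-like growth factors, had 1147 against 445 CPM and 1251 against 248 CPM. Kitl, the stem cell factor of bone marrow vessels, had 485 against 407 CPM on day 12 and 587 against 289 CPM on day 10, a ratio of 0.25 and 1.02. Igf1 was lower in both libraries without reaching 2-fold in both (log2 -0.78 on day 12 and -1.05 on day 10). Pdgfb, with which endothelium recruits pericytes and smooth muscle, had 322 against 207 CPM on day 12 and 315 against 104 CPM on day 10. Tgfb2 had 156 against 60.3 CPM and 139 against 87.3 CPM, and Vegfc, the ligand of the lymphatic receptor Flt4, had 193 against 61.2 CPM and 116 against 45.2 CPM.

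The rule for named genes added 20 genes with the largest ratios held in both libraries, 12 of them in none of the gene lists used here. Nebl, an actin-binding protein of the nebulin family, had 113 against 5.74 CPM in other endothelial cells on day 12 and 71.4 against 4.58 CPM on day 10. It came from few cells: 20 of 114 and 28 of 144 held a UMI. Stromal cells held 36.9 CPM on day 12. Lrrc3b, a leucine-rich repeat membrane protein, had 66.3 against 6.7 CPM and 29.6 against 3.36 CPM, and no UMI in sinusoidal cells of either day. Depp1, a target of FoxO factors, had 154 against 19.1 CPM and 161 against 16.8 CPM. Stmn2, a microtubule regulator best known from neurons, had 177 against 31.6 CPM and 162 against 27.2 CPM, and 1 cell gave 27.9% of its arterial UMIs on day 12. The other genes were Tox2, Tmem178, Magix, St8sia6, Slc35f1, Egfl8, Msx1, Prdm16, Slc45a4, Sez6l2 and Lama3. Their log2 ratios ran between 1.91 for Sez6l2 on day 12 and 4.11 for Tmem178 on day 12. Several are transcriptional regulators, of which Prdm16 had 32.2 against 7.17 CPM on day 12 and 73.9 against 18 CPM on day 10, and Msx1 18.3 against 3.35 CPM and 21.1 against 3.66 CPM.

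**Figure D2:**
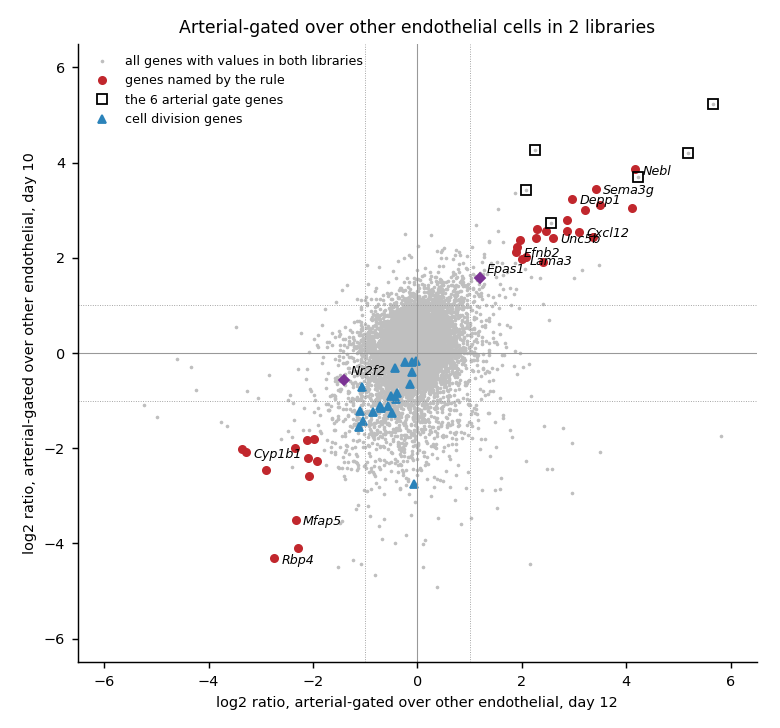
Log2 ratio of arterial-gated over other endothelial cells on day 12 (x axis) and day 10 (y axis) for each gene with a value in both libraries (grey), with the genes named by the rule (red), the gate genes (open squares), cell division genes (blue triangles) and Nr2f2 and Epas1 (purple). Dotted lines mark 2-fold; the red points in the upper right quadrant include Nebl, Sema3g, Depp1 and Cxcl12, and all 19 triangles lie below 0 on both axes.

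Among transcription factors few differed in both libraries, where 0.896% of all genes were called higher and 1.47% lower. Epas1, the hypoxia-inducible factor found in endothelium, had 773 against 338 CPM on day 12 and 935 against 313 CPM on day 10 (log2 1.19 and 1.58). It was the only member of 14 measured hypoxia and glycolysis genes called higher. Hif1a had ratios of -0.84 and 0.23, and Pgk1 and Ldha, enzymes of glycolysis, 0.27 and -0.07 and 0.23 and -0.21. Mecom, a zinc finger factor of arterial and blood stem cells, had 694 against 385 CPM on day 12 and 808 against 297 CPM on day 10, and it was called higher over sinusoidal cells, which held 144 and 139 CPM. None of 11 measured SoxF, ETS and forkhead factors outside the gate was called: Sox7 had ratios of 0.37 and 1.13, Ets1 0.05 and 0.82, and Erg -0.03 and 0.79, so that these shared endothelial factors differed on day 10 by about as much as Cdh5 and little on day 12.

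Over other endothelial cells, basement membrane genes were higher in arterial-gated cells, slightly on day 12 and more on day 10. The list of arterial wall genes was not higher in that comparison. On day 12, 1 of 14 basement membrane genes was at least 2-fold higher (median log2 0.40), against 2.53% of all genes. On day 10, 10 of 14 were (median 1.07), against 5.3%. Of 14 basement membrane genes, 13 were above 0 in both libraries, but only Lama3, a laminin chain, was called, at 104 against 25.4 CPM on day 12 and 136 against 34.5 CPM on day 10. Col4a1 and Col4a2, the network collagens of basement membrane, had ratios of 0.27 and 0.47 on day 12 and 1.02 and 1.08 on day 10. Of 18 measured genes of elastic fibres and arterial wall matrix, 1 was called higher and 2 lower, against 0.896% and 1.47% of all genes. Fbln5, which endothelium makes for elastic fibres, was the higher one, at 153 against 74.6 CPM and 276 against 92.2 CPM. Eln, the elastin of arterial walls, had opposite signs in the libraries, with 147 against 505 CPM on day 12 and 635 against 335 CPM on day 10, and Mfap5 and Ltbp3 were the lower ones. Over sinusoidal cells, 4 of 16 measured wall genes were called higher and none lower, against 3.5% and 2.04% of all genes. On day 12 alone 10 of 16 were at least 2-fold higher, against 7.96%. On day 10 alone 5 of 16 were higher and 2 lower, against 10.7% and 6.2%. The part of other cells' RNA in these ratios was not tested. Mural cells of the wall were not part of the gate: 4 of 114 cells on day 12 and 10 of 144 on day 10 held at least 3 of Acta2, Tagln, Myh11, Rgs5 and Pdgfrb.

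Genes of veins were lower, though unevenly. Nr2f2, the venous nuclear receptor, had 133 CPM in arterial-gated cells on day 12 (115 to 152), against 353 CPM in other endothelial cells and 455 CPM in sinusoidal cells. On day 10 it had 118 CPM (104 to 133), against 176 and 289 CPM. Its log2 ratio over other endothelial cells was -1.41 on day 12 and -0.58 on day 10, so it did not pass 2-fold in both. Over sinusoidal cells it did, at -1.77 and -1.29. Thinned shares were 22.1% of arterial-gated cells, against 45.4% of other endothelial and 66.1% of sinusoidal cells on day 12, and 21.5%, against 30.0% and 60.0% on day 10. Of the 10 venous genes, 7 were lower in both libraries and none higher, and the 2 called were Ackr1 and Sele, against 1.47% of all genes. Ackr1, a chemokine receptor of venules, had 1.26 against 56.4 CPM on day 12 and 20.3 against 51.9 CPM on day 10. Emcn and Plvap, which mature arteries lack, were still present in most arterial-gated cells after thinning: Emcn in 81.7% on day 12 and 75.4% on day 10 and Plvap in 64.4% and 63.8%, both being genes of the endothelial gate.

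Transcripts of dividing cells were lower in arterial-gated cells than in other endothelial cells, in both libraries. All 19 cell division genes had a ratio below 0 over other endothelial cells in both libraries, with a list median of -0.48 on day 12 and -0.96 on day 10, against -0.03 and 0.09 over all genes. Only 3 of the 19, Cenpf, Cenpe and Ube2c, were past 2-fold in both. Top2a, the topoisomerase of dividing cells, had 102 CPM in arterial-gated cells, against 183 CPM in other endothelial and 257 CPM in sinusoidal cells on day 12. On day 10 it had 68.4, against 162 and 156 CPM. Mki67 had 100.5, against 165 and 229 CPM on day 12 and 68, against 147 and 129 CPM on day 10. Over sinusoidal cells 13 of the 19 were called lower, against 2.04% of 9331 genes measured there. Genes of DNA synthesis differed less, with Pcna at -0.11 and -0.19 and Mcm2 at -0.03 and -0.16 on the log2 scale over other endothelial cells.

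The share of cells with division transcripts depended on the depth at which it was taken. After thinning, 32.7% of 104 arterial-gated cells held at least 3 of the 19 division genes on day 12 (95% interval 23.8 to 42.6%), against 39.8% of 196 other endothelial cells (32.9 to 47.0%) and 53.2% of 62 sinusoidal cells (40.1 to 66.0%). On day 10 the shares were 20% of 130 (13.5 to 27.9%), against 46.7% of 240 (40.2 to 53.2%) and 45.0% of 20 (23.1 to 68.5%). The intervals of arterial-gated and other endothelial cells were apart on day 10 and overlapped on day 12. Without thinning, at least 6 of the 19 genes were held by 28.1% of arterial-gated cells against 26.0% of other endothelial cells on day 12 and by 30.6% against 31.5% on day 10. Top2a alone was detected in 15.4% of thinned arterial-gated cells on day 12 and 16.9% on day 10, against 16.7% and 22.9% of stromal cells. Single stromal cells held up to 2.63% and 2.22% of their UMIs in division genes, so the stromal share is not a measure of free RNA. A part of the arterial-gated measure can be free RNA, and that part was not tested. Of 10 cell cycle inhibitors and growth arrest genes none was called in either direction, against 0.896% of all genes called higher and 1.47% lower. Cdkn1a was at -0.26 and -0.24 and Cdkn1b at -0.57 and -0.13.

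**Figure D3:**
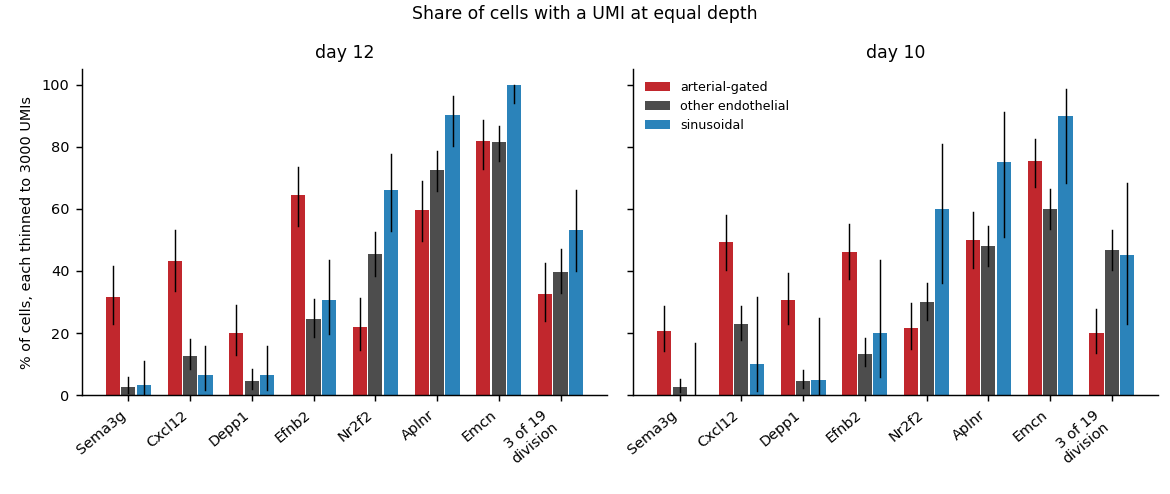
Share of cells with a UMI of each gene, and with at least 3 of 19 cell division genes, in arterial-gated (red), other endothelial (grey) and sinusoidal (blue) cells on days 12 and 10, each cell thinned to 3000 UMIs; bars start at 0 and lines are 95% Clopper-Pearson intervals. Sema3g, Cxcl12, Depp1 and Efnb2 were detected in more arterial-gated cells than other endothelial cells on both days, and Nr2f2 in fewer.

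The genes with the smallest ratios were sparse in arterial-gated cells and included genes of other cell types. They included Rbp4, Hmga2, Mfap5, Cd79a, Cyp1b1, Sema3e, Actg2, Lgr6, Chchd10, Kcnq5 and Ptk2b. Cd79a, a B cell receptor component, had 3.16 against 15.3 CPM on day 12 and 5.49 against 26.5 CPM on day 10, beside 42.7 CPM in leukocytes of day 12. Mfap5, a microfibril protein of fibroblasts, had 9.48 against 49.7 CPM on day 12 and 2.96 against 37.2 CPM on day 10. When cells with over 1% hemoglobin or over 1% collagen UMIs or with 3 mural genes were left out of every group, 17 of the 20 higher genes kept their call, and the other 3 had too few UMIs left in a library. Of the lower genes named here Ptk2b kept its call, Kcnq5 had opposite signs and the others had too few UMIs left in at least 1 library. B lineage genes were called lower in 4 of 5 measured cases and chondrocyte genes in 9 of 10, against 1.47% of all genes. Summed B lineage genes were about level, at 0.0962% of arterial-gated against 0.0927% of other endothelial UMIs on day 12 and 0.127% against 0.130% on day 10. Summed chondrocyte genes were lower, at 0.175% against 0.389% and 0.0462% against 0.217%. The part of such RNA in the lower genes was not tested further. Hmga2, a chromatin protein of embryonic and growing cells, had 1.26 against 12.9 CPM and 5.49 against 31.7 CPM, and it was detected in 2 and 8 arterial-gated cells.

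Against sinusoidal cells the contrast was wider, with 327 genes called higher (3.5% of 9331) and 190 lower. Of 20 measured arterial genes outside the rule, 14 were called higher and none lower. Some markers of other cell types were higher as well. Mural genes were called higher in 6 of 9 measured cases, with a median log2 ratio of 2.94, and osteoblast genes in 4 of 7. On day 12 alone 9 of 10 fibroblast genes, 7 of 8 osteoblast genes and 6 of 6 neutrophil granule genes were at least 2-fold higher. The share over all genes on that day was 7.96%. Mural genes made up 0.0694% of UMIs in arterial-gated cells against 0.034% in sinusoidal cells on day 12 and 0.0936% against 0.023% on day 10. Their part in the 327 genes was not tested. The water channel Aqp1 had 422 against 97 CPM on day 12 and 431 against 265 CPM on day 10. Cav1, the coat protein of caveolae, had 1628 against 308 CPM on day 12 and 2676 against 479.7 CPM on day 10, and Ltbp4, which stores TGF-beta in the matrix, had 333 against 58.2 CPM and 538 against 129 CPM. Esm1, a proteoglycan of sprouting vessels and the only member of 13 measured tip cell genes called over other endothelial cells as well (log2 1.12 and 2.69), had 111 CPM against 3.23 CPM in sinusoidal cells on day 12, and 259.7 CPM on day 10 against no UMI in 21 sinusoidal cells, which with a floor of 3 UMIs is at least 45.5-fold higher. The share of all genes called higher over other endothelial cells was 0.896%. On day 10 alone 6 of 14 tip cell genes were at least 2-fold higher over other endothelial cells (median log2 0.96), against 5.3% of all genes. On day 12 alone 2 of 13 were higher and 1 lower, against 2.53% and 3.82%. Lrrc36 and Gm12002 had no sinusoidal UMI on either day, and Gm12002 was at least 14.1-fold higher on day 12 and at least 7.54-fold on day 10. Some of this group rested on single cells: 1 cell gave 85.4% of the arterial UMIs of Rgs5, a pericyte gene, on day 12 and 54.8% on day 10. Bglap2, an osteocalcin gene with a near-identical copy among which reads may be split, had 99.4% of its day 10 UMIs in 1 cell.

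Genes lower than in sinusoidal cells included the scavenging and clotting genes of sinusoids. Stab1, the relative of the gate gene Stab2, had 123 against 369 CPM on day 12 and 81.9 against 221 CPM on day 10. Mrc1, the mannose receptor, had 20.2 against 94.9 CPM and 5.91 against 87.6 CPM. F8, the clotting factor made by endothelium, had 8.85 against 70.1 CPM and 6.34 against 43.8 CPM. Of 10 measured sinusoidal genes 4 were called lower, namely Stab1, Mrc1, Adamts5 and Tfpi, and none higher. The other named genes were Pld5, Ralgapa2, Adh6b, Plk1, Cdh4, Gatm, St8sia1 and Gm41414, of which Ralgapa2, a GTPase-activating protein subunit, had 115 against 720.3 CPM on day 12 and 104 against 857 CPM on day 10. In the comparison with other endothelial cells, no sinusoidal list member was called in either direction, against 0.896% of all genes called higher and 1.47% lower.

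**Figure D4:**
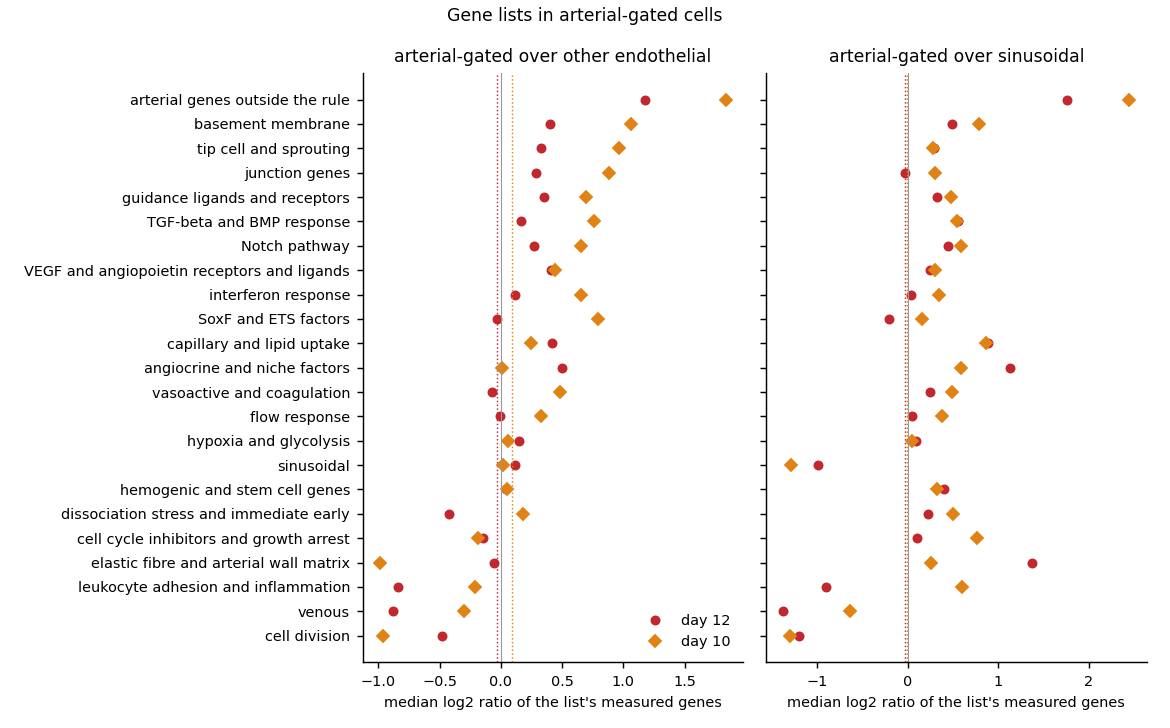
Median log2 ratio of the gene lists over other endothelial cells (left) and over sinusoidal cells (right), without the lists of the gate and of other cell types, on day 12 (circles) and day 10 (diamonds), with dotted lines at the median of all genes. Among the lists drawn, arterial genes outside the rule lie farthest right on both days in both panels, and cell division and venous genes lie left of 0.

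Genes that set vessel tone were not called over other endothelial cells, like most genes. Of 16 vasoactive and coagulation genes none was called over other endothelial cells, against 0.896% of all genes called higher and 1.47% lower. On day 10 alone 4 of 16 were at least 2-fold higher and 1 lower, against 5.3% and 9.8% of all genes. On day 12 alone 1 was higher and 2 were lower, against 2.53% and 3.82%. Edn1 and Ace were called higher than in sinusoidal cells and F8 and Tfpi lower. Edn1, the vasoconstrictor endothelin, had 45.5 CPM in arterial-gated cells, against 43 CPM in other endothelial and 21.6 CPM in sinusoidal cells on day 12, and 87.8, against 47.9 and 11.4 CPM on day 10. Nos3, which makes nitric oxide, had 109, against 101 and 100.3 CPM on day 12 and 106, against 47.9 and 97.1 CPM on day 10. Vwf, the clotting protein that is richest in veins, had 44.9 against 92.8 CPM in other endothelial cells on day 12 and 75.6 against 93.1 CPM on day 10. Among junction genes, Gja1, the connexin shared by arterial endothelium and wall, had log2 ratios over other endothelial cells of 1.09 on day 12 and 0.53 on day 10.

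Several programmes held few or no genes past 2-fold in both libraries, where 0.896% of all genes were called higher and 1.47% lower. A list with no call is therefore near the share of all genes. Of 12 genes that respond to blood flow, none was called higher and 1, Cyp1b1, was lower, with Klf2 at log2 0.09 and 0.21 over other endothelial cells and Klf4 at 0.06 and 0.22. No junction gene of 12, interferon gene of 10 or hemogenic and stem cell gene of 14 was called in that comparison. On day 10 alone they were not level: 5 of 12 junction genes were at least 2-fold higher, with a list median of 0.88. Interferon genes had a median of 0.66, and of 17 hemogenic genes 6 were higher and 4 lower. Over all 11718 genes measured on day 10, 5.3% were at least 2-fold higher and 9.8% lower, with a median of 0.09. Runx1, the factor of blood-forming endothelium, had 58.1 against 58.8 CPM on day 12 and 43.5 against 89.4 CPM on day 10. Its thinned share was 8.65% and 11.5% of arterial-gated cells, against 32.8% and 23.4% of stromal cells. Stromal cells may hold the transcript themselves, so their share is not a measure of free RNA. Whether the arterial-gated cells express Runx1 was not tested. Gfi1 had no UMI in arterial-gated cells of either day. Capillary genes were present as well. Gpihbp1, which carries lipoprotein lipase, had 499 against 386 CPM and 572 against 258 CPM, and 1 of 11 capillary genes, Aqp7, was called higher. Lymphatic genes were rare, with 1 of 114 cells on day 12 and 2 of 144 on day 10 holding at least 3 of Prox1, Mmrn1, Lyve1, Ccl21a and Reln.

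The gated cells were not uniform, and genes outside the rule varied with the number of arterial gate genes a cell held. On day 12 Sema3g was at 7.96 CPM in endothelial cells with none of the 6 genes, 15.6 with 1, 29.9 with 2, 99.9 with 3 and 291 with 4 to 6. On day 10 the series was 5.39, 15.5, 18.9, 57.5 and 291 CPM. The step just outside to just inside the threshold, between 1 and 2 genes, was thus smaller than the steps above it. Cxcl12 went through 51, 217, 441 and 932 CPM for 1, 2, 3 and 4 to 6 genes on day 12 and 188, 259, 785 and 1639 CPM on day 10. Nebl, Lrrc3b and Tox2 were highest in the top class on day 12, with 332, 165 and 42.8 CPM there against 12.8, 7.13 and 2.85 CPM in cells with 2 genes.

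Genes of veins and division were lowest in cells with 3 or with 4 to 6 arterial genes, but did not fall off class by class. Nr2f2 was at 353 CPM in cells with no arterial gene, 353 with 1, 191 with 2, 64 with 3 and 104 with 4 to 6 on day 12, and at 162, 194, 185, 78 and 43.2 CPM on day 10. The 10 venous genes together were at 2059, 2315, 1663, 1296 and 1055 CPM on day 12 and at 1181, 1927, 1869.7, 1277 and 579.6 CPM on day 10, where cells with no arterial gene were below those with 1. The 19 division genes together were at 1973, 1752, 2055, 792 and 639 CPM on day 12 and at 1589, 2038, 1214, 1290.2 and 536 CPM on day 10. On day 12 cells with 2 arterial genes were therefore no lower in division genes than cells with 1, and the low level lay in cells with 3 or more. Median depth also increased along these classes, at 3927, 6861.5, 8447, 8680 and 14886 UMIs on day 12 and 3619.5, 7446, 12611, 13230 and 13261 on day 10. These values describe cells grouped by the rule's own genes and carry no test.

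**Figure D5:**
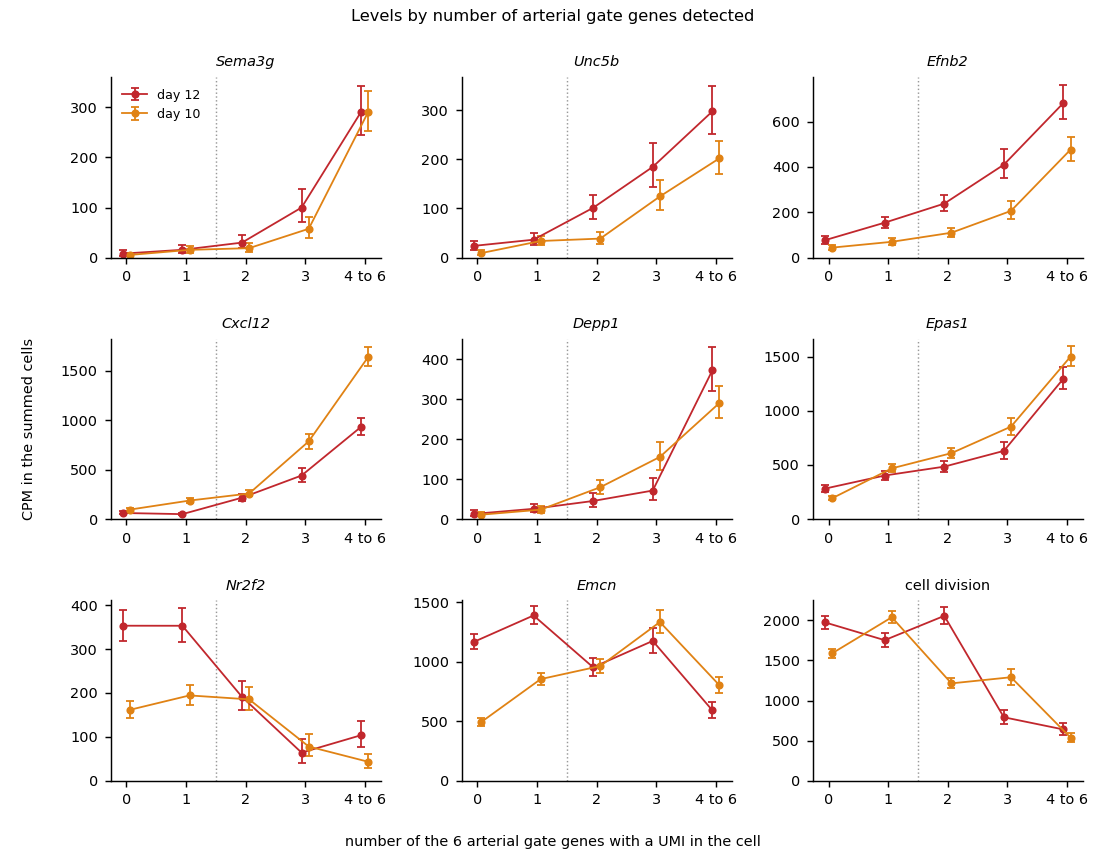
CPM of 8 genes and of the summed 19 cell division genes in endothelial cells grouped by how many of the 6 arterial gate genes they held (x axis), on day 12 (red) and day 10 (orange), with 95% Poisson intervals; the dotted line is the gate. Sema3g, Unc5b, Efnb2, Cxcl12, Depp1 and Epas1 were highest at 4 to 6 genes, where division genes were lowest on both days.

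Like most genes measured, most arterial genes had similar levels on both days. Of the 22 arterial genes outside the rule, 20 differed by less than 2-fold between day 12 and day 10, with a median log2 ratio of -0.01 against 0.08 over all genes. Over all 10693 genes 4.47% were at least 2-fold higher on day 12 and 4.49% lower, so the arterial list was near the share of all genes. Efnb2 had 418 CPM on day 12 and 243 CPM on day 10 (log2 0.78), a shift that other endothelial cells shared (log2 1.02). The exceptions were Alpl (log2 1.53) and Gkn3, a gene of brain arterioles, which had 1 UMI on day 12 and 69.3 CPM in 14 cells on day 10, 36% of it in 1 cell. The libraries also differ in Y-linked RNA, with Ddx3y at 141 CPM in arterial-gated cells of day 12 and no UMI on day 10.

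Adhesion and early response genes were lower on day 12. Of 11 measured genes of leukocyte adhesion and inflammation 7 were at least 2-fold lower and none higher, against 4.49% of all genes. Icam1 had 29.1 CPM on day 12 and 123 CPM on day 10 (log2 -2.06), and in other endothelial cells the same ratio was 0.35. Sele, the endothelial selectin, had 1.9 CPM on day 12, all from 1 cell, and 46.5 CPM in 16 cells on day 10, with a ratio of -1.96 in other endothelial cells. Selp had 4.42 and 121 CPM, 56.6% of the day 10 UMIs in 1 cell. Of 14 immediate early and stress genes 8 were lower, among them Fos with 569 CPM on day 12 against 2254 CPM on day 10, and Atf3 with 20.9 against 181 CPM. Other endothelial cells shared these shifts, at log2 -1.69 for Fos and -2.15 for Atf3. Hes1, a Notch target that also responds to other signals, had 158 CPM on day 12 and 441 CPM on day 10 (log2 -1.48, and -0.88 in other endothelial cells). Eln was lower on day 12, at 147 against 635 CPM (log2 -2.11), where other endothelial cells had a ratio of 0.59.

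Several of the genes with the largest ratios between the days rested on single cells. Mmp9, a gelatinase of osteoclasts and invading vessels, had 866 CPM on day 12 against 16.5 CPM on day 10, but 66.4% of its day 12 UMIs came from 1 cell. Mmp13, the collagenase of growth cartilage and bone, had 1458 CPM on day 12, 37.2% of it in 1 cell, and 32.5 CPM on day 10, a ratio of 5.46 in arterial-gated cells against -0.10 in other endothelial cells. Mmp10 had 98.9% of its day 12 UMIs in 1 cell. Without the top cell of each gene in each library the ratio was 4.17 for Mmp9 (log2 5.67 with it), 5.03 for Mmp13 and 1.17 for Mmp10 (log2 5.92 with it), and the 10 higher genes all stayed past 2-fold. The other genes named by size were Gm8292, Ptprz1, Abca8a, Rspo3, Csmd1, Sstr2 and Ptx3 among the higher and Ntng1, Lrrc15, Gm10736, Bglap, Trim69, Ppm1n and Gm8451, beside Gkn3, Selp and Sele, among the lower. Bglap, the near-identical copy of Bglap2, had 99.2% of its day 10 UMIs in 1 cell, and without the top cells its log2 ratio was 0.49, against -4.40 with them. Cartilage transcripts differed between the libraries in stromal cells as well, with 10 chondrocyte genes at 0.175% of arterial UMIs on day 12 and 0.0462% on day 10, against 4.62% and 0.905% in stromal cells of those days. Division genes were higher on day 12 in 15 of 19 cases, with a median log2 ratio of 0.56, and Bub1 passed 2-fold.

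The same gate found fewer cells earlier, 12 among 59 endothelial-gated cells on day 7 and 45 among 286 on day 8. These libraries were also shallower, with a median of 3103 and 3168.5 UMIs per filtered cell, against 7706.5 on day 10 and 6563.5 on day 12. The gate favours deep cells, and the part of depth in these counts was not tested. Over days 7, 8, 10 and 12 Sema3g was at 33.1, 35.6, 110.2 and 128 CPM in arterial-gated cells. In other endothelial cells of those days it was at 4.36, 9.24, 9.77 and 11.5 CPM. Nebl was at 16.6, 52.1, 71.4 and 113 CPM in the arterial-gated cells. The day 7 levels in arterial-gated cells rested on 6 UMIs of Sema3g and 3 UMIs of Nebl. Cxcl12 was at 326, 611, 797 and 494 CPM and was above other endothelial cells on each day. Some genes higher in arterial-gated cells on days 10 and 12 were not so on day 7. Depp1 was at 93.9, 578, 161 and 154 CPM in arterial-gated cells, against 152, 355, 16.8 and 19.1 CPM in other endothelial cells, so that on day 7 it was lower in the 12 arterial-gated cells. Jag2 had 5.52 against 17.4 CPM on day 7, Stmn2 27.6 against 69.7 CPM and Rbp7 22.1 against 34.9 CPM, and all 3 were higher in arterial-gated cells on day 8. Nr2f2 stayed below its level in other endothelial cells of the same library throughout, at 44.2, 57.5, 118 and 133 CPM, against 126, 134, 176 and 353 CPM. Heat shock RNA set the earlier libraries apart, with Hspa1a at 596 and 918 CPM in arterial-gated cells on days 7 and 8 and 7.18 and 12 CPM on days 10 and 12.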

How the data were processed

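Cells of the femoral epiphysis of WT mice were captured in droplets with a 3' chemistry on the MobiNova-100 instrument, 1 library per day, per the labels' protocols. The deposited values are UMI counts per gene and cell, not normalised, and they were made on GRCm39 as named in the submitters' processing notes. The sources used here do not name the counter, the annotation version or the rule for calling cells, and 55416 features are listed per library. Cells were kept at 500 genes, 1000 UMIs and 15% mitochondrial UMIs, with no doublet caller run. UMIs were summed per group and library and scaled to CPM, and log2 ratios used a prior of 1 UMI shared out by group totals, for features with at least 20 UMIs over both groups. A gene was called at 2-fold in the same direction in both libraries, or at 2-fold between the days. No test was made, since each day has 1 library and the groups were chosen from the transcripts compared, and Poisson and Clopper-Pearson intervals at 95% cover counting error only, since reads of 1 library share their preparation.

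The members and the 35 gene lists were chosen with earlier results of these data known. The text names the 20 highest and 12 lowest genes over other endothelial cells, the 10 highest and 10 lowest over sinusoidal cells and between days, and members of the lists. Some list members were picked for mention after their values were seen, and a few results are not reported here. The alternatives varied the gate, depth, other cells' RNA, scaling (TMM), minimum and prior. The ratio step was tested on simulated data. Python 3.11.15, NumPy 2.4.6, SciPy 1.17.1, pandas 2.3.3, matplotlib 3.10.9, R 4.3.3 and edgeR 4.0.16 (for TMM factors only) were used. Promoters came from RefSeq on GRCm38.p6, with 15 of 20 genes matched.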

Additional observations from a re-analysis of the deposited data

Results flagged for a closer look

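For 8 genes of the lists the ratio of arterial-gated over other endothelial cells had opposite signs in the libraries and was past 2-fold in each, and the difference between the days was not tested. Bmp2, a bone morphogenetic protein, had a log2 ratio of 1.14 on day 12 and -1.28 on day 10. Wnt5a, a Wnt ligand, had 1.16 on day 12 and -1.58 on day 10, and Slit2, a guidance ligand, 1.13 and -1.18. Heyl, a Notch target also found in mural cells, had 2.42 on day 12 and -1.52 on day 10, with 40% of its day 12 and 55.6% of its day 10 arterial UMIs in 1 cell. The other 4 are genes of other cell classes. Mmp9, of osteoclasts, had 2.97 on day 12 and -1.89 on day 10, and 1.82 on day 12 without its top cells. Spp1, of bone-forming cells and osteoclasts, had 1.59 and -2.86, C1qc, of macrophages, 1.03 and -1.29, and Camp, a neutrophil granule gene, 1.48 and -2.88, with 64.5% of its day 12 arterial UMIs in 1 cell.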

How the results depend on the processing

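The share of arterial-gated cells depended on the gate. It was 0.375% on day 12 and 0.728% on day 10 with at least 3 arterial genes, 0.862% and 1.70% among cells with at least 3000 UMIs, and 0.461% and 0.917% without cells carrying RNA of other classes. With the gate applied after thinning it was 0.876% on day 10. Over other endothelial cells, 94 genes were called higher and 154 lower. The counts became 145 and 342 with the thinned gate, 147 and 279 with the mean over cells, 60 and 75 at a minimum of 50 UMIs, and 394 and 586 with no minimum. The lower count alone moved to 273 with at least 3 arterial genes, 55 without cells carrying RNA of other classes and 248 without the top cell of each gene, an alternative chosen after seeing the data. Over sinusoidal cells, 327 higher and 190 lower became 198 and 118 at a minimum of 50 UMIs and 906 and 450 with no minimum, and the lower count was 125 with the thinned gate. Between the days, 478 higher and 480 lower became 259 and 235 at 50 UMIs and 2303 and 2090 with no minimum. A higher minimum tests fewer genes, and the cause of the other shifts was not tested. Of the genes given in the text, Bglap alone turned round, at 2.76 with at least 3 arterial genes, 2.82 without the 6% of cells with most UMIs and 0.49 without its top cells, against -4.40. Of the 20 named genes higher than in other endothelial cells, all had a call with the thinned gate and with TMM scaling, 19 with at least 3 arterial genes and 14 at 50 UMIs. No paired analysis was possible because no test was made, although each ratio between groups of cells was taken within 1 library. At 114 and 144 cells, transcripts under 20 UMIs over both groups were not compared.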
